A study of Equus caballus with 8 samples.

Results

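Equine mesenchymal stem cells of the bone marrow (BM-MSCs) were compared for 10 enzymes of serine, glycine and proline synthesis and of the linked folate steps. These were PHGDH, PSAT1, PSPH, SHMT1, SHMT2, MTHFD2, MTHFD1L, ALDH1L2, ALDH18A1 and PYCR1. The enzymes were chosen by gene symbol for their place in or beside these routes, which supply the glycine and proline that fill collagen chains. The choice was made with earlier results of these data known, so their counts beside those of all genes are a description. All 10 had a row among the 15266 named genes of the series, and all 10 were among the 14907 genes tested. Sternal marrow of 4 healthy horses, labelled D, J, L and W, was split into an untreated culture and a culture given 1 ng/ml human recombinant TGF-b2, here TGF-β2. The labels date the exposure from isolation to passage 3 or 4, whereas the study's methods give 3 passages. Both cultures grew in the same serum-containing, low-glucose medium. By the study's methods this medium also held glutamine and 1 ng/ml of human basic fibroblast growth factor. Each horse therefore gave 1 untreated and 1 treated library of poly(A)-selected RNA, and libraries were paired by horse. Normalized counts are the reads of a gene over the library's size factor and take no account of transcript length, so levels are compared between libraries and not between genes.

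Serine is made from the glycolytic intermediate 3-phosphoglycerate. PHGDH oxidizes it, PSAT1 adds the amino group with glutamate as donor, and PSPH removes the phosphate. SHMT1 in the cytosol and SHMT2 in mitochondria turn serine into glycine and pass a carbon unit to folate, which MTHFD2, MTHFD1L and ALDH1L2 then oxidize or release in mitochondria. Proline is made from glutamate, through ALDH18A1 and then PYCR1. In many cell types the transcription factor ATF4, which responds to amino acid shortage and stress of the endoplasmic reticulum, controls genes of these routes.

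Between 40044240 and 57228675 reads were counted in the untreated libraries and between 39184554 and 46634539 in the treated ones. A single library held from 175 to 20122 reads of an enzyme, so that none lay near the floor of 3 reads. All 7 stromal markers tested, CD44, THY1, ENG, NT5E, ITGB1, PDGFRB and PDGFRA, were detected in all libraries, and of these THY1 and PDGFRA were called lower after treatment. Of 8 haematopoietic markers only PTPRC, ITGAL, CSF1R and CD68 were listed, and their sum was 499 to 2602 normalized counts in untreated and 388 to 714 in treated libraries. Of 5 endothelial markers CDH5 and KDR were listed, with a sum of 7.10 to 26.3 and 30.0 to 55.7. KDR was called higher, but its untreated libraries held 1.01 to 14.8 normalized counts, the lowest with 1 read, under the floor of 3 reads. None of the 4 haematopoietic markers was called by limma, and 2, PTPRC and CD68, had an unadjusted p under 0.05, both lower. DESeq2 with the horse called 1 of the 4 lower. In bulk RNA, fewer cells of a type and less RNA per cell cannot be told apart. The untreated library of horse L stood apart for the enzymes, and the enzyme changes are also given without this horse.

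Of the 10 enzymes, 9 rose after TGF-β2 treatment and SHMT1 did not pass the test. A gene was called higher at a Benjamini-Hochberg adjusted p under 0.05 and a log2 fold change over 1 in limma with the horse as a block, which 6.83% of all tested genes reached, against 7.31% called lower. No enzyme was called lower, nor did any have an unadjusted p under 0.05 in that direction. Without the limit on the fold change the same 9 of 10 had an adjusted p under 0.05, where 30.9% of all tested genes did. The median log2 fold change was 1.63 over the 10 enzymes and 0.01 over all tested genes. Without the horse as a block, 8 of 10 were called higher against a background of 5.59%, and the enzyme lost was PSAT1. In 7 of 10 enzymes all 4 treated libraries lay above all 4 untreated ones, which held for 13.9% of all tested genes. With horse L left out the count was 9 again, and it was 7 without J, 2 without D and 1 without W. With all horses, 1018 of the 14907 tested genes were called higher. The number was 936 without L, 1143 without J, 588 without D and 547 without W. Without L the limma log2 estimates were 1.46 for PHGDH, 4.59 for PSAT1, 1.30 for PSPH, 0.30 for SHMT1 and 1.72 for SHMT2. They were 2.65 for MTHFD2, 1.81 for MTHFD1L, 3.45 for ALDH1L2, 1.92 for ALDH18A1 and 2.34 for PYCR1. Each estimate lay above its value with all horses, which follows from the change in L being below the mean of the horses. Under total scaling, in which all libraries are given equal sums, the median log2 fold change of all tested genes was -0.30, 27.6% of all calls were higher against 48.3%, and 7 enzymes were called higher.

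**Figure D1:**
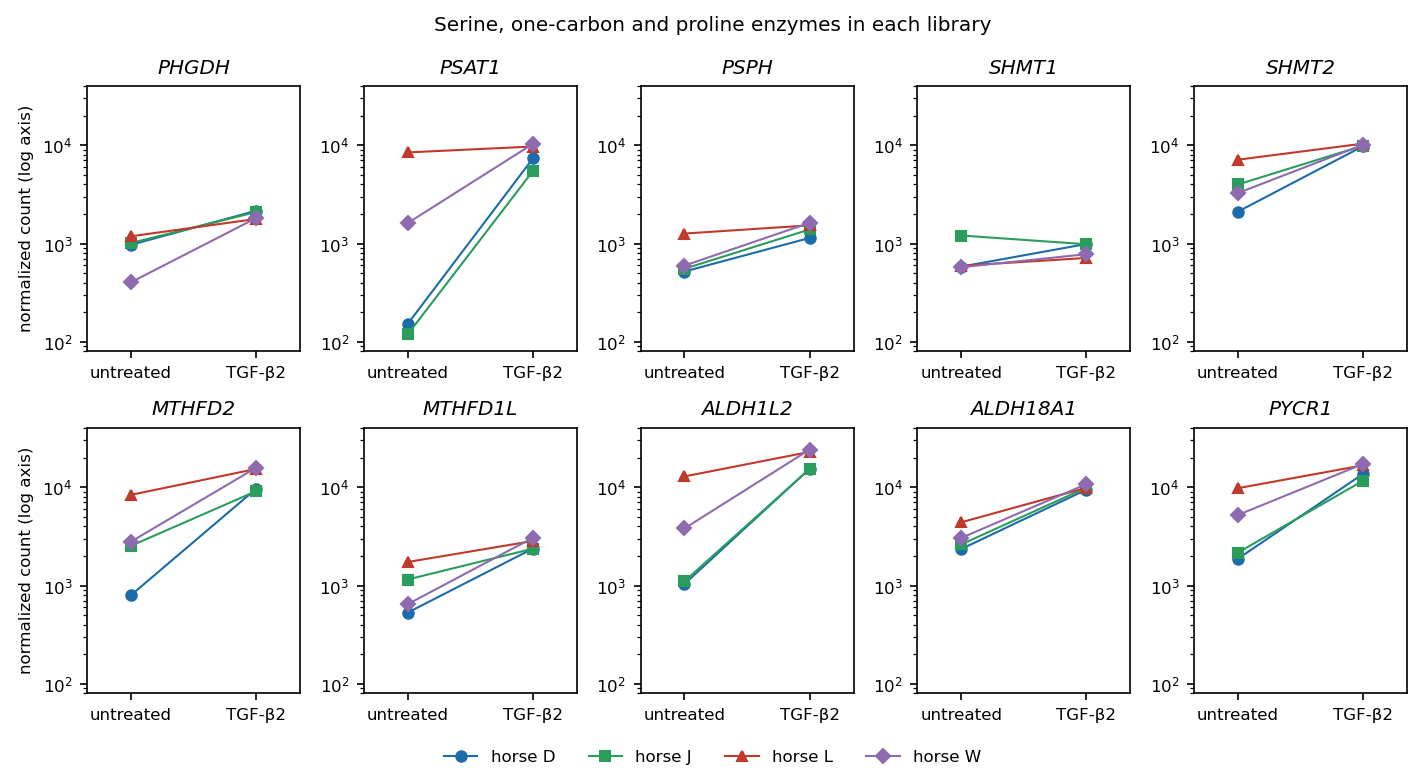
Normalized counts of the 10 enzymes on a log axis in untreated and TGF-β2-treated libraries, with 1 line for each horse. In 9 panels every line rises; in SHMT1 the line of horse J falls from 1206 to 984. The untreated values of PSAT1 run from 119 to 8446 and the treated values from 5472 to 10329.6.

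The 3 enzymes of serine synthesis all rose. PHGDH, the first enzyme of the route, had 970.1 normalized counts in untreated cells of horse D, 1012 in J, 1185 in L and 404 in W. In treated cells it had 2157, 2093, 1779.6 and 1818 in the same order. The groups did not overlap, and the lowest untreated library was that of W. On the log2 scale PHGDH rose by 1.24 (SE 0.26, limma adjusted p = 0.0196). It was short of the fold limit under total scaling and without horse W, at 0.93 in both, and its adjusted p was 0.0806 without horse D.

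PSAT1, the aminotransferase of the route, had the largest log2 fold change of the 10 enzymes in limma with the block, where it ranked 147 of the 14907 tested genes. By the ratio of group means PSAT1, at 3.18, came after ALDH1L2 (4.14), MTHFD2 (3.45) and ALDH18A1 (3.22). Untreated cells of horses D and J held 152 and 119 normalized counts, those of W 1614 and those of L 8446. In treated cells the same gene had 7351 in D, 5472 in J, 9699 in L and 10329.6 in W. The untreated library of L thus lay among the treated ones, and the groups overlapped. The ratio of treated to untreated was 48.3 in D and 45.9 in J, 6.40 in W and 1.15 in L. On the log2 scale PSAT1 rose by 3.49 (SE 0.95), with a 95% confidence interval from 1.14 to 5.84. The limma adjusted p was 0.0411 with the block, 0.0781 without the block and 0.01555 without horse L. PSAT1 was not called without horse D, J or W, with adjusted p from 0.07215 to 0.147, nor by edgeR with the horse, at 0.06755, nor by limma with no trend, at 0.06371. In DESeq2 without the horse the log2 fold change of PSAT1 was 1.67 with an adjusted p of 0.3096.

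PSPH, the phosphatase of the last step, had 519 normalized counts in D, 554 in J, 1264 in L and 597 in W in untreated cells. After treatment it had 1141, 1392, 1531 and 1624. Horse L was again high without treatment, above the treated level of D, and the groups overlapped. PSPH rose by 1.05 on the log2 scale (SE 0.21, limma adjusted p = 0.0181). PSPH was not called under total scaling, where it was 0.73, or with horse D, J or W left out, with adjusted p of 0.0829, 0.0302 and 0.0886 and log2 fold changes of 1.02, 0.95 and 0.91. In DESeq2 without the horse it was 0.96, short of the fold limit.

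Of the 2 hydroxymethyltransferases, the mitochondrial SHMT2 rose and the cytosolic SHMT1 was not called. SHMT2 had 2109.95 normalized counts in D, 3987 in J, 7123 in L and 3261 in W in untreated cells, and 9788, 9896, 10381 and 10109 in treated cells. The treated libraries were within a factor of 1.06 of each other, whereas the untreated ones differed by a factor of 3.38. The log2 rise of SHMT2 was 1.43 (SE 0.26, limma adjusted p = 0.0146). It was not called without horse D or W.

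SHMT1 had 582 normalized counts in D, 1206 in J, 595 in L and 574 in W without treatment. With treatment the values were 989.8, 984, 714 and 779.7. Horse J was higher without treatment and the other 3 horses with it, and the groups overlapped. The limma estimate was 0.29 on the log2 scale, with a 95% confidence interval from -0.17 to 0.75 and an adjusted p of 0.271. It was -0.0179 under total scaling, so no direction can be given for SHMT1. Without horse J the estimate was 0.49 (adjusted p 0.0409), short of the fold limit. Proliferation markers (MKI67, TOP2A, CCNB1, CDK1, MCM2, PCNA, BIRC5 and AURKB) summed to 19042 normalized counts in untreated cells of J and to 5733 to 11644 in the other untreated libraries. None of the 8 was called by limma, and none had an unadjusted p under 0.05. Their treated sums ran from 3598 to 19660.1, and their part in the level of SHMT1 was not tested.

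Of the 10 enzymes, the 3 others of the mitochondrial folate steps rose together with SHMT2. Outside the 10, the mitochondrial MTHFD2L was at 0.16 on the log2 scale (limma adjusted p = 0.601). The folate genes SLC25A32 and MTFMT were at 0.28 and 0.18 (0.155 and 0.380), and none of these was called. MTHFD2, a dehydrogenase and cyclohydrolase, had 798 normalized counts in D, 2534 in J, 8358 in L and 2794 in W in untreated cells. Its treated values were 9651, 9126, 15356 and 15798, all above the untreated ones. The log2 rise of MTHFD2 was 2.20 (SE 0.42, limma adjusted p = 0.0160). It was called in 3 of the 4 fits that left out a horse, the exception being W.

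MTHFD1L, which releases the carbon unit as formate, had 531 normalized counts in D, 1152 in J, 1736 in L and 646 in W, and 2377, 2372, 2837 and 3059.97 after treatment. The groups did not overlap. MTHFD1L rose by 1.54 on the log2 scale (SE 0.29, limma adjusted p = 0.0160). ALDH1L2, the mitochondrial formyltetrahydrofolate dehydrogenase, had 1038 normalized counts in D, 1103 in J, 12861 in L and 3807 in W without treatment. In treated cells it had 15419.9, 15361, 22875 and 24175. The ratio of treated to untreated was thus 14.9 in D and 13.9 in J, and 1.78 in L, whose untreated level was 12.4 times that of D. ALDH1L2 rose by 2.80 on the log2 scale (SE 0.53, limma adjusted p = 0.0152). Among the 10 enzymes this was second to PSAT1 in this fit, and ALDH1L2 was first by the ratio of group means and in DESeq2 without the horse, at 2.05 against 1.67 for PSAT1. Neither MTHFD1L nor ALDH1L2 was called without horse D or W.

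Both enzymes of proline synthesis rose. ALDH18A1, which turns glutamate into the precursor of proline, had 2349 normalized counts in D, 2616 in J, 4395 in L and 3048 in W. After treatment it had 9452, 9907, 9868 and 10757. This was the most even change of the 10, from 1.17 in L to 2.01 in D on the log2 scale. ALDH18A1 rose by 1.73 on the log2 scale, with the smallest standard error of the 10, 0.16, and a limma adjusted p of 0.00254. It was the only 1 of the 10 called under each of the 18 alternatives, including an adjusted p under 0.01.

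PYCR1, the mitochondrial reductase that completes proline, had 1872 normalized counts in D, 2159.8 in J, 9773 in L and 5216 in W. Treated cells held 13683, 11668, 16699 and 17253, and no treated library was as low as an untreated one. The log2 rise of PYCR1 was 1.95 (SE 0.34, limma adjusted p = 0.0124), and it was not called without horse D or W. The related reductase PYCR3, which is cytosolic, rose by 0.72 on the log2 scale (limma adjusted p = 0.00469), short of the fold limit.

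**Figure D2:**
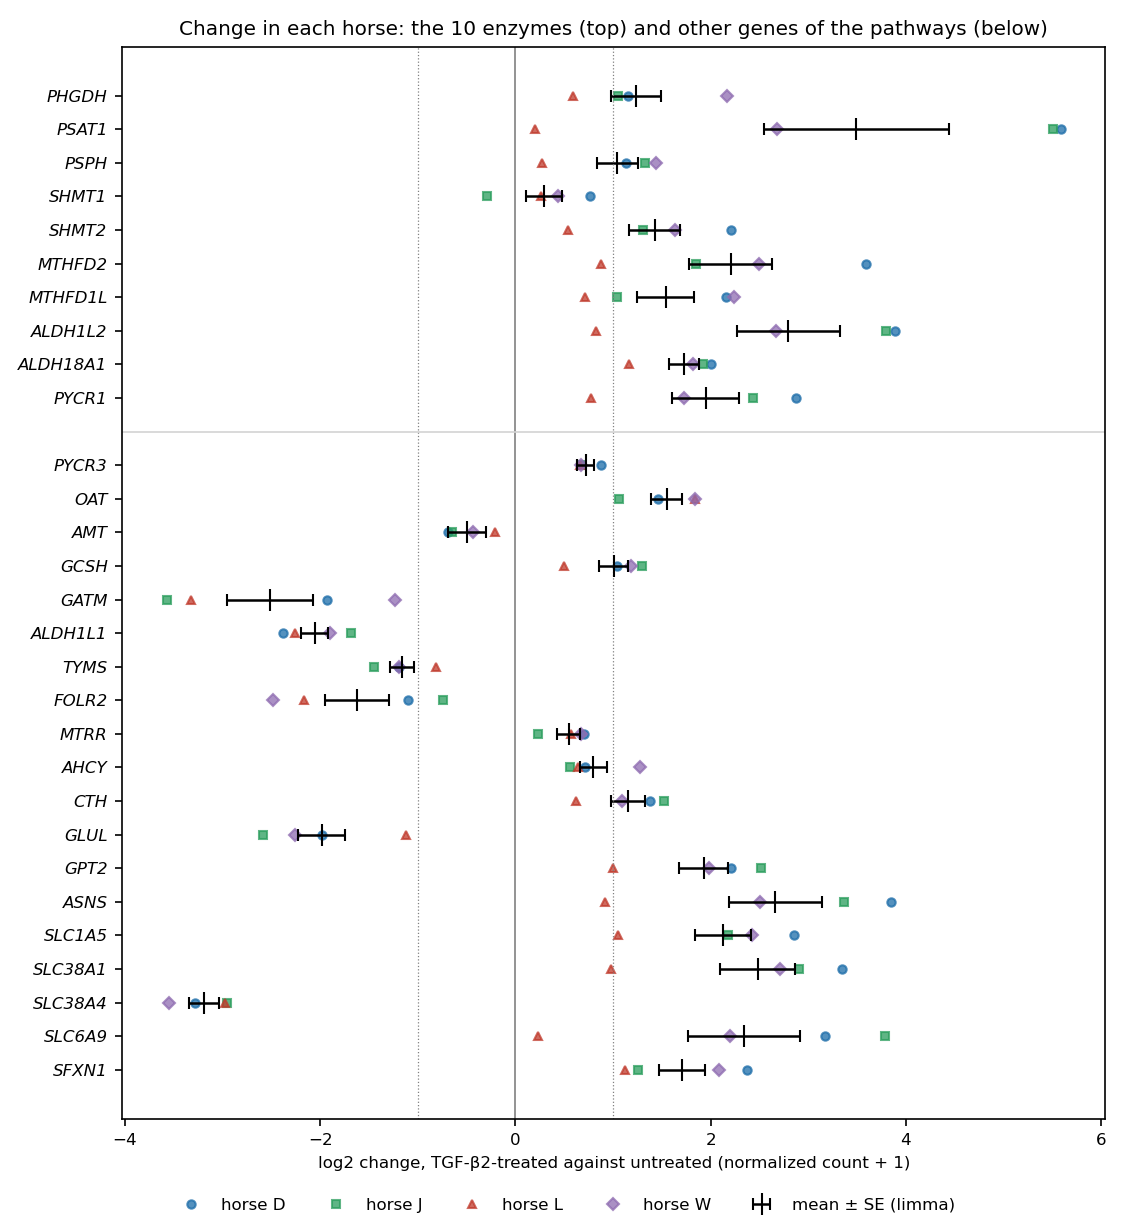
Log2 change from untreated to TGF-β2-treated in each horse (symbols), with the mean and standard error from limma (black), for the 10 enzymes above the grey line and other genes of the same pathways below it. Genes below the line were taken because they were called or had a change among the largest of their list. They do not stand for all genes of these lists. Dotted lines mark the fold limit of 1. For 9 of the 10 enzymes horse L shows the smallest change, and for SHMT1 the smallest is that of J.

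The horses differed in how far the enzymes moved, and they differed mainly before treatment. The median log2 change of the 10 enzymes was 2.19 in D, 1.59 in J and 1.99 in W, and 0.65 in L. In each of D, J and W 9 enzymes changed by more than 1 on the log2 scale, whereas in L this held for ALDH18A1 alone, with 1.17. Over all tested genes the share that rose by more than 1 was 8.90% in L and 10.0% to 10.6% in the other 3 horses. With 1 library for each horse and treatment, the difference between horses was not tested.

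In untreated cells horse L had the highest level of 9 of the 10 enzymes, against 24.02% of all tested genes. In treated cells it had the highest level of 1 of 10, against 24.4%. The standard deviation of log2 values between horses was larger in untreated than in treated cells for all 10 enzymes, which was so for 65.9% of all tested genes. Its median over the enzymes was 0.75 in untreated and 0.23 in treated cells, and over all tested genes 0.33 and 0.23. For PSAT1 it was 2.92 in untreated cells, a value that 72 of the 14907 tested genes reached, PSAT1 included. The treated levels were close in all horses, within a factor of 1.06 for SHMT2, 1.14 for ALDH18A1 and at most 1.89, for PSAT1. These are descriptions of 4 horses, chosen after the values were seen.

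Within a library, the ratio of reads of 2 genes does not depend on how libraries are scaled. These ratios were chosen after the values were seen. The ratio of SHMT2 to SHMT1 reads was higher after treatment in 4 of 4 horses, going from 3.62 to 9.89 in D, 3.30 to 10.1 in J, 12.0 to 14.5 in L and 5.68 to 13.0 in W. The mean log2 change of this ratio was 1.13 ± 0.59 (SD, n = 4). For ALDH1L2 and its cytosolic counterpart ALDH1L1 the ratio went from 0.3602 to 28.0 in D, 0.544 to 24.4 in J, 2.67 to 22.6 in L and 0.754 to 17.8 in W, a mean log2 change of 4.85 ± 1.37 (SD, n = 4). Here the mitochondrial form rose and the cytosolic form fell.

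Against MTHFD1, the cytosolic enzyme that carries several of these activities, the mean log2 change of the ratio was 2.56 ± 1.13 for MTHFD2 and 1.89 ± 0.71 for MTHFD1L (SD, n = 4). Against MTHFD2L, another mitochondrial enzyme, it was 2.04 ± 1.43 for MTHFD2. For PYCR1 it was 1.23 ± 0.85 against PYCR3, with 0.11 in horse L. All 6 ratios were higher after treatment in 4 of 4 horses. The exact sign-flip permutation test (two-sided) gave p = 0.125 for each, before and after adjustment over the 6 ratios, which is the smallest value that 4 horses allow.

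**Figure D3:**
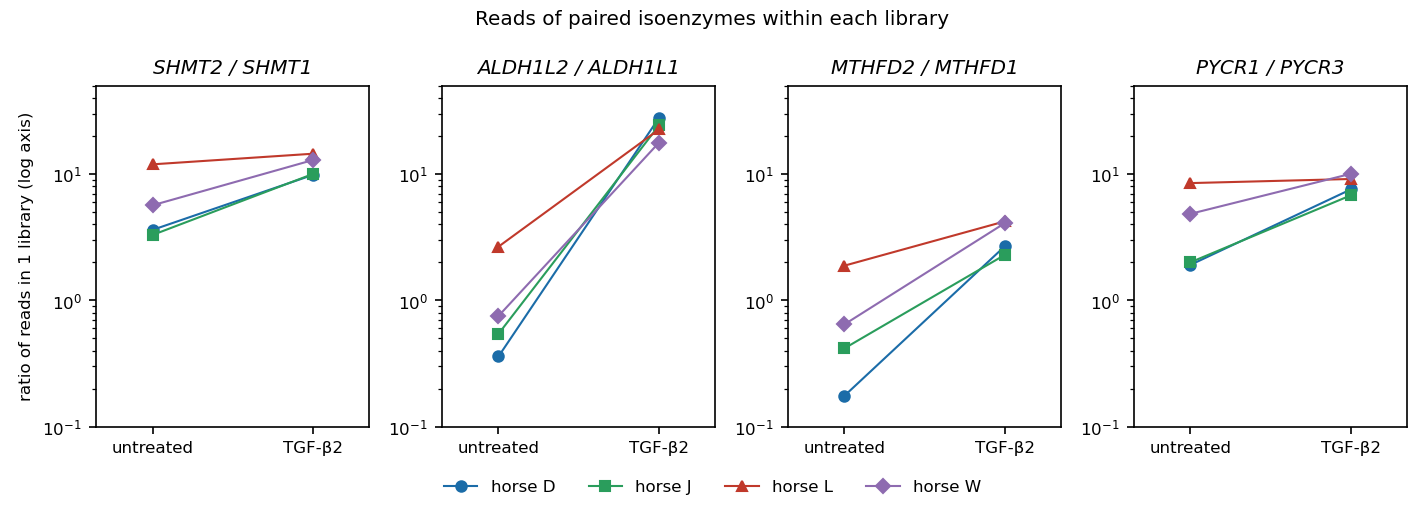
Ratio of reads of 2 related enzymes within each library, on a log axis, for SHMT2 over SHMT1, ALDH1L2 over ALDH1L1, MTHFD2 over MTHFD1 and PYCR1 over PYCR3, in untreated and TGF-β2-treated cells with 1 line for each horse; all lines go up. The ratio of ALDH1L2 to ALDH1L1 is between 0.3602 and 2.67 in untreated and between 17.8 and 28.0 in treated libraries.

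The other genes of the pathways did not move as one. Of 86 tested genes in 10 lists around these routes, 22 were called higher and 6 lower, where 14.1% of all tested genes were called in either direction. Their median log2 fold change was 0.27. The lists and the 10 enzymes were chosen with earlier results of these data known, so these counts are a description.

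Among 12 other genes of the folate cycle, 3 were called lower by limma and 0 higher, and none had an unadjusted p under 0.05 in the higher direction. ALDH1L1, which oxidizes formyl folate in the cytosol, had 2882, 2027, 4818 and 5052 normalized counts in untreated cells of D, J, L and W and 551, 631, 1011 and 1358 in treated cells. On the log2 scale this was a change of -2.05 (limma adjusted p = 0.00135). TYMS, the thymidylate synthase of DNA precursor synthesis, fell by 1.16 on the log2 scale (limma adjusted p = 0.00362), and FOLR2, a folate receptor, by 1.62 (0.0190). MTHFD1 fell by 0.35 (0.0440), short of the fold limit, and its adjusted p was 0.0695 without the block. Of these, FOLR2 was not called with horse D, L or W left out.

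Of 8 tested genes of glycine and serine breakdown and use, GCSH was called higher and GATM lower. GCSH, the carrier protein of the glycine cleavage system, rose by 1.01 on the log2 scale (limma adjusted p = 0.00859), close to the fold limit. It was 0.69 under total scaling and not called there or with D, J or W left out. GLDC and AMT, enzymes of the same system, had -0.38 and -0.49 with adjusted p of 0.154 and 0.104. GATM, which uses glycine to make the precursor of creatine, had 376 ± 385 normalized counts without treatment and 45.2 ± 21.8 with it (SD, n = 4). It fell by 2.51 on the log2 scale (limma adjusted p = 0.0122). The groups overlapped, since the untreated library of W held 69.0 and the treated one of J 77.1.

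Genes that make or use glutamate and related amino acids moved in both directions. OAT, an aminotransferase that links ornithine to the proline precursor, rose from 10610.0 ± 2256 to 30634 ± 2027 normalized counts (SD, n = 4), or by 1.55 on the log2 scale (limma adjusted p = 0.00328). GPT2, the mitochondrial alanine aminotransferase, and ASNS, the asparagine synthetase, rose by 1.93 and 2.66 on the log2 scale (limma adjusted p = 0.00583 and 0.0132). Without the block the adjusted p was 0.0661 for GPT2, which was then not called. GLUL, the glutamine synthetase, fell by 1.98 on the log2 scale, from 8299 ± 5594 to 1884 ± 663 normalized counts, with an adjusted p of 0.00480. GLUD1 fell by 0.84 (0.00661), short of the fold limit.

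Of 11 tested transporters of serine, glycine and proline, 4 were called higher and 1 lower. SLC38A1 and SLC1A5, which carry neutral amino acids into the cell, rose by 2.48 and 2.13 on the log2 scale, and SFXN1, which carries serine into mitochondria, by 1.71 (limma adjusted p = 0.00925, 0.00649 and 0.00663). SLC6A9, a glycine transporter, had 161, 92.2, 2477 and 853 normalized counts in untreated cells of D, J, L and W, the same order of horses L, W, D and J as PSAT1. SLC6A9 rose by 2.35 on the log2 scale (limma adjusted p = 0.0312), and its adjusted p was 0.122 without the block. SLC38A4 fell in each horse, its log2 change lying between -3.55 and -2.95, with an adjusted p of 9.72e-04. SLC38A2 fell by 0.86 (0.00457), short of the fold limit.

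In the methionine cycle and transsulfuration, CTH, which makes cysteine with sulfur from methionine and a backbone from serine, was the only 1 of 9 tested genes called, at 1.15 on the log2 scale (limma adjusted p = 0.00864). Under total scaling CTH was at 0.84, and it was not called without horse D or W. AHCY rose by 0.80 (adjusted p 0.0121). Of 5 tested glycolytic genes around 3-phosphoglycerate 0 were called by limma, by edgeR and by DESeq2 with the horse, and 4 had an unadjusted p under 0.05 in limma. GAPDH, PGK1 and PGAM1 rose by 0.58, 0.73 and 0.97 on the log2 scale (limma adjusted p = 0.0497, 0.0229 and 0.00674). Without horse L, PGAM1 was called, at 1.08.

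The list of ATF4 and related regulators had 4 of 14 tested genes called higher and 0 lower. ATF4 had 7269.6 normalized counts in D, 8015 in J, 20964 in L and 10941 in W in untreated cells, and 21035, 18521, 27332 and 27415 in treated cells. The untreated library of L was above the treated one of J. ATF4 rose by 1.11 on the log2 scale (limma adjusted p = 0.0135). It was not called under total scaling, at 0.80, or without horse D or W. CHAC1, which degrades glutathione, had 10.4 and 12.8 normalized counts in untreated D and J, 1577 in L and 326 in W, against 1253 to 2933 after treatment. CHAC1 rose by 4.38 on the log2 scale (limma adjusted p = 0.0315), and TRIB3 and ATF5 by 1.33 and 1.70 (0.0494 and 0.0352). Without the block CHAC1, TRIB3 and ATF5 were not called, with adjusted p from 0.0691 to 0.122, and edgeR did not call CHAC1 or TRIB3 (0.05736 and 0.05859).

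Of the other genes of this list, CEBPB fell by 0.91 on the log2 scale (limma adjusted p = 0.0161), and PPP1R15A rose by 0.75 (0.0161) with groups that did not overlap, both short of the fold limit. DDIT3, SESN2 and NUPR1 were at 0.73, 0.58 and -0.23 on this scale and did not pass the test (adjusted p 0.0842, 0.161 and 0.527). DDIT3 was higher after treatment in D, J and W, with log2 changes of 0.94, 1.08 and 1.19, and at -0.28 in L. In untreated cells of L, DDIT3, SESN2 and NUPR1 had 3156, 4976 and 4166 normalized counts, above all other libraries, treated ones included. Horse L had the highest untreated level of 10 of the 14 genes of the list. The part of these regulators in the levels of the enzymes was not tested.

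**Figure D4:**
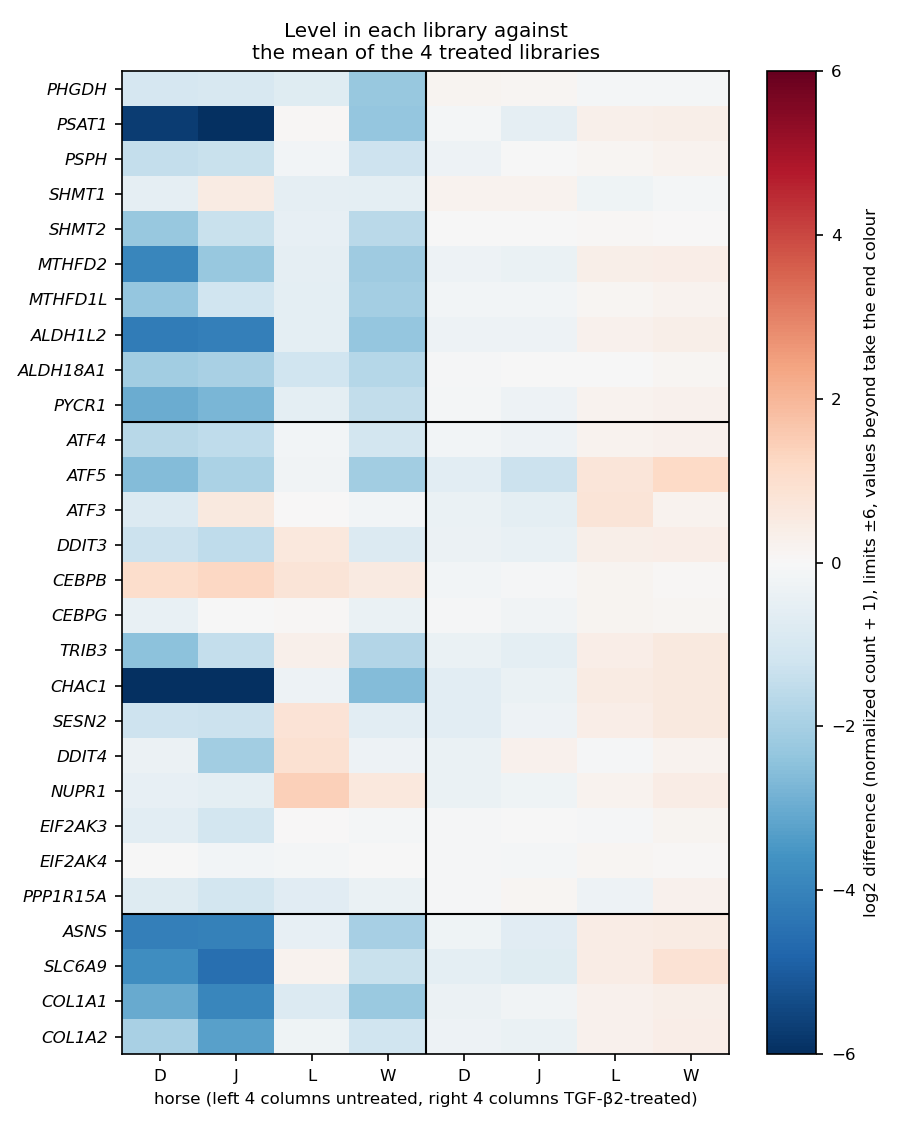
Log2 level of each gene in each library against the mean of its 4 treated libraries, with blue for lower and red for higher, for the 10 enzymes (top), the list of ATF4 and related regulators (middle) and ASNS, SLC6A9, COL1A1 and COL1A2 (bottom). Columns are horses D, J, L and W, first untreated and then TGF-β2-treated. The untreated column of L is nearly white for most enzymes (PSAT1 0.08, SHMT2 -0.50), whereas those of D and J are deep blue for PSAT1 (-5.70 and -6.05) and ALDH1L2 (-4.19 and -4.11).

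Among untreated libraries that of horse L was also the highest for 4 of 4 listed collagen chains, COL1A1, COL1A2, COL5A1 and COL5A2. Collagen chains are rich in glycine and proline. The same library was the highest for 5 of 9 genes of collagen prolyl hydroxylation. COL1A1 had 198255, 106716, 931747 and 348458 normalized counts in untreated cells of D, J, L and W. All 4 listed chains of collagens I and V were called higher after treatment, with a median log2 fold change of 2.31, and 3 without the block, COL1A2 being lost. Of 9 tested genes of collagen prolyl hydroxylation, P4HA1, P4HA2, P4HA3, P3H1 and P3H2 were called higher, with log2 fold changes of 1.16, 1.09, 1.07, 1.21 and 1.86. Under total scaling only P3H2 of these was called, and P4HA1 was not called without the block. Of 5 smooth-muscle markers, ACTA2, TAGLN, CNN1 and DES were called higher. MYH11 was not called, at -0.12 on the log2 scale (limma adjusted p = 0.891). DES had as few as 1 read in an untreated library, under the floor of 3 reads. The untreated sum of all 5 was highest in W, 305003 normalized counts, and was 223474 in L. The part of these markers in the enzyme levels was not tested.

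Patterns over the 8 libraries were compared by Pearson's r of log2 values, as a description that the treatment and the shared horses shape. For the 9 enzymes other than SHMT1, r ranged from 0.517 to 0.996 over 36 pairs, with a median of 0.925. For the 9 pairs with SHMT1 it ranged from -0.105 to 0.504. The gene most like ALDH1L2 was PYCR1 (r = 0.996), followed by ASNS (0.994) and HDLBP (0.992). The gene most like PSAT1 was CHAC1 (0.994), followed by LOC100063245 (0.993) and ASNS (0.987). The aminoacyl-tRNA synthetases IARS (0.996) and YARS (0.993) and the chaperone gene HSPA5 (0.995) were most like MTHFD2. Most like SHMT2 were NARS (0.993), MARS (0.990) and CCDC47 (0.987). PSPH was most like TNN (0.992), PCK2 (0.990) and SLC3A2 (0.986). PHGDH was most like AHCY (0.985) and CLK3 (0.979), MTHFD1L like PGK1 and SLC38A5 (both 0.996), and ALDH18A1 like TDG (0.999) and B4GALT2 (0.995). SHMT1 was most like NDC1 (0.987), SRSF9 and PPAT (both 0.985). For each enzyme these values of r are the highest over all tested genes. They reached 0.987 for SHMT1 too, which was not called.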

How the data were processed

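The authors trimmed reads with Trimmomatic 0.36, mapped them to EquCab 3.0 with STAR 2.5.2b and counted unique hits per gene with featureCounts (Subread 1.5.2). They deposited normalized counts, a signal that is never negative, as 1 column for each of the 8 libraries. The annotation is not given in the sources used here. The 1 row without a gene name, at most 0.0531% of the reads of a library, was left out. Deposited values were whole multiples of 1 step per library (100% within 0.1 reads), which gave back the reads for depth, ratios and count tests.

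The test was limma 3.58.1 (R 4.3.3, trend) on log2(normalized count + 1), with the horse as a block, for the 14907 genes that reached 10 normalized counts in 4 or more libraries. Fold changes are on this scale, which understates the change of low genes. The authors' comparison names no term for the horse, so the fit without it is given too. Libraries of the same horse deviated together from their group means (mean r = 0.480 across genes, 0.386 to 0.609). The mean for different horses, -0.159, follows largely from taking off the group means and is not a separate contrast. Alternatives were other pseudocounts, filters, scalings and thresholds, no trend, DESeq2 1.42.0, edgeR 4.0.16 and each horse left out. On simulated data limma recovered 200 of 200 changed genes with 3 other calls among 15093. Each simulated log2 change had the same size in every horse and was larger than the 1.95 of PYCR1. Recovery of smaller changes, such as those of PSPH (1.05) and PHGDH (1.24), was not tested. Recovery of genes whose change differs between horses, such as PSAT1 with a log2 change of 0.20 in L and 5.58 in D, was not tested. The floor of 3 reads covers counting error only, whereas the confidence intervals are those of limma over horses.

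All 10 enzymes are named. Of the other lists, every called gene and the 3 with the largest change could be named, and further genes were chosen after their values were seen. The enzymes and lists were chosen with earlier results of these data known, and the isoenzyme ratios after the values were seen. P-values of fits with the horse as a block set the change against its spread over 4 horses, with 1 culture for each treatment. Those of fits without the block set it against the spread between horses. Sequences and promoters were not analysed here, and results for some listed genes are not reported here.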

Additional observations from a re-analysis of the deposited data

Results flagged for a closer look

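Each enzyme was looked at in both groups of 4 libraries for a library far from the other 3. Of these 20 groups, 2 held one. Chance alone would flag about 1 in 20 groups if they were independent, and these share libraries. The untreated library of horse L had 1264 (1263.6) normalized counts of PSPH, where the other untreated libraries had 519 to 597. The untreated library of horse J had 1206 normalized counts of SHMT1, where the others had 574 to 595. Without horse L, PSPH had a log2 fold change of 1.30, against 1.05 with all horses. Without horse J, SHMT1 had 0.49 against 0.29.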

How the results depend on the processing

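The number of enzymes called higher was 9 with the horse as a block and 8 with no replicate block, and it was 7 to 9 under the other pseudocounts, filters, scalings and tools. At an adjusted p under 0.01 it was 1, ALDH18A1, and the number of pathway genes called was 16 instead of 28. With no fold threshold 47 pathway genes passed. With each horse left out, 1 to 9 enzymes were called higher, 2 to 9 had an adjusted p under 0.05 and 14 to 28 pathway genes were called. The lowest counts came without W (1 enzyme) and without D (2 enzymes), where calls over all tested genes also fell, from 2108 to 1080 and 1173. No enzyme was called lower under any alternative. The change of SHMT1 was reversed under total scaling, at -0.0179 against 0.29. The block is the horse: cultures of the same animal were paired, and without the pairing PSAT1, GPT2, SLC6A9, ATF5, TRIB3, CHAC1, P4HA1 and COL1A2 were the named genes no longer called. Why calls changed was not tested. Levels rest on at least 175 reads of an enzyme in a library.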
